A study of Homo sapiens with 4 samples.

Results

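Long unspliced m7G peaks are enriched stretches of 400 nt or more that lie in 1 genomic block, so that no intron interrupts them. They were taken from the authors' peak list of each m7G immunoprecipitation (IP) sample as the entries with a block count of 1 and at least 400 nt between start and end. This choice used length and splicing, and no measure of enrichment. Replicate 1 held 114 such peaks among 3355 peaks (3.40%, 95% Wilson interval 2.84 to 4.07%). Replicate 2 held 157 among 4747 (3.31%, 2.84 to 3.86%), and the mean over the lists was 3.35 ± 0.064% (SD, n = 2). They made up 4.62% of the 2469 unspliced peaks of replicate 1 and 4.61% of the 3409 of replicate 2, and they covered 10.1% of all bases under peaks in each list.

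The material was untreated HepG2, an established human hepatocellular carcinoma cell line kept in standard medium with serum. Libraries were made from whole-cell poly(A) RNA, 2 of them as input and 2 from the IP with an anti-m7G antibody. All samples share the line, the medium and the poly(A) selection, and the input samples were not analysed here. Whether the IP replicates came from separate cultures is not stated, so the spread between them may be technical. Read depth is unknown from the lists, and intervals on shares of peaks cover counting error only. With 1 value per list and 1 group, no test between conditions was possible, and differences are set against the spread between the 2 lists. HepG2 is a tumour line and not primary liver tissue. Of its labelled cell type, 6 of 14 hepatocyte markers had a peak of any kind in either list (among them APOA1, APOB, TF, SERPINA1 and FOXA2), as did LYZ and CD68 of 6 immune markers and ACTA2 of 6 endothelial and stellate markers. None of these markers carried a long unspliced peak, and the lists do not show whether a gene without a peak was expressed.

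N7-methylguanosine is the base of the cap that marks the start of every mRNA made by RNA polymerase II, where it is bound by translation initiation factors and by the nuclear cap-binding complex. The same modification also occurs inside RNA, where the METTL1 and WDR4 methyltransferase places it in tRNAs and has been linked to sites within mRNAs. In m7G MeRIP-seq, RNA fragments that the antibody retains are sequenced, and a peak caller marks stretches where they exceed the background. A peak is therefore wider than a modified base, and a long peak can hold 1 or many such bases. Whether caps were removed before the IP is not stated in the sources used here.

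A group of these peaks ran up to or past the annotated start of their gene, which is where a capped end would lie, and their sequences at that edge show where the calls stop. In replicate 1, 17 of 114 long unspliced peaks (14.9%) reached the annotated start, and in replicate 2, 23 of 157 (14.6%) did. These peaks belonged to 29 genes, of which 11 had such a peak in both lists. RefSeq promoter sequence was held for 7 of the 11, and the window from 100 bases before to 30 bases after the start is given for each, 5′ to 3′ on the gene's strand, in build GRCh38.p14. Capitals mark the bases inside the replicate 1 peak. The windows lie at chr14:22982522-22982651 (AJUBA, minus strand), chr20:50190483-50190612 (CEBPB, plus strand), chr19:18281593-18281722 (JUND, minus strand), chr2:183038428-183038557 (NCKAP1, minus strand), chr20:33993811-33993940 (RALY, plus strand), chr2:96208798-96208927 (STARD7, minus strand) and chr19:41353893-41354022 (TGFB1, minus strand).
AJUBA: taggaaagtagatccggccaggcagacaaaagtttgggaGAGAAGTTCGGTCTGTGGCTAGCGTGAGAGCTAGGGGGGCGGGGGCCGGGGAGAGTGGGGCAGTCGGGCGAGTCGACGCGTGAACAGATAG
CEBPB: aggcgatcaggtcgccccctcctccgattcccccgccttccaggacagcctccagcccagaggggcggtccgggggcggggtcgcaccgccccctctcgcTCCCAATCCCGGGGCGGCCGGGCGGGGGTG
JUND: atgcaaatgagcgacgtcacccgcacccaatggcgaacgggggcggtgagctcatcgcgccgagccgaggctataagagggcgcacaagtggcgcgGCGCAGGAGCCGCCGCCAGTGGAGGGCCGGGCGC
NCKAP1: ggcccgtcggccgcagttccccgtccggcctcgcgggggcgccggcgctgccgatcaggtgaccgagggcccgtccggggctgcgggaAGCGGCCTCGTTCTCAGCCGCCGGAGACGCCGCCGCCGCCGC
RALY: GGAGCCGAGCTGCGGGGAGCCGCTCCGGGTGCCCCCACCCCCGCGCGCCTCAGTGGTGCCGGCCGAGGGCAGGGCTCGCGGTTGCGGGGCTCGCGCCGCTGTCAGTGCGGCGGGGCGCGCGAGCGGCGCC
STARD7: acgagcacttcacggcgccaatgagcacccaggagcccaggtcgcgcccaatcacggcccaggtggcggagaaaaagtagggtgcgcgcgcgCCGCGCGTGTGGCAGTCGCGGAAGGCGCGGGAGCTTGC
TGFB1: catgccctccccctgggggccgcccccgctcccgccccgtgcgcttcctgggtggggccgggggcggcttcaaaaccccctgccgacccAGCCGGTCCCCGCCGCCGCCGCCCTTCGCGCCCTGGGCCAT
CEBPB, which encodes a leucine zipper transcription factor of the hepatic acute-phase response, had an edge exactly at the annotated start in both lists, 0 nt away. The edge of STARD7 lay 8 nt upstream of the start in both lists, and that of TGFB1, a secreted growth factor, 11 nt upstream in both. JUND, a component of the AP-1 transcription factor, reached 4 nt past the start in replicate 1 and 34 nt in replicate 2. The window of RALY, which encodes an RNA-binding protein, was covered whole, because its peak began 199 nt before the annotated start in replicate 1 and 229 nt before it in replicate 2. Over all peaks that reached a start, the median overhang was 25 nt in replicate 1 and 31 nt in replicate 2. Overhangs above 100 nt were seen in 8 peaks of 6 genes, among them ERO1A, PIP4K2B, PXDC1, RALY and RBCK1. The start used here is the end of a RefSeq gene span, and the sources used here do not name the authors' annotation. The 7 windows held between 61.5% (AJUBA) and 83.1% (RALY) G and C. A check of composition against other genes is void here, because promoter sequence was held for 144 of the 182 genes with a long unspliced peak (79.1%), under the minimum of 80%.

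The peaks ranged from 413 to 1400 nt in replicate 1 (median 507.5, interquartile range 443.25 to 647.75 nt) and from 414 to 1905 nt in replicate 2 (median 480, 447 to 630 nt). Unspliced peaks as a whole had a median of 150 nt in both lists. Their lengths fell on a grid, within 3 nt of a multiple of 30 nt for 97.8% of unspliced peaks in replicate 1 and 97.9% in replicate 2. Of the long ones, 76.3% and 79.0% did so. The grid left a gap around the threshold, as the longest unspliced peak under 400 nt measured 391 nt in both lists and the shortest above it 413 and 414 nt. The values on either side of that gap ran on without a step upward. From 380 nt up to the threshold, 24 peaks of replicate 1 had a median fold enrichment of 5.91 and 43 of replicate 2 a median of 6.33. From there to 420 nt, the medians were 4.07 over 27 peaks and 5.23 over 34. Just inside the threshold lay H2AX (413 nt, fold 3.08), WDR5 (417 nt, 5.08) and HMGA1 (417 nt, 1.54) in replicate 1, and ASPHD1 (414 nt, 9.49), H1-10 (414 nt, 4.68) and EID2 (416 nt, 12.3) in replicate 2. Just outside lay RCOR1 (7.95), MBD2 (7.42) and NFIC (6.85), all of 391 nt in replicate 1, and KDM2A (391 nt, 38), ZNF12 (391 nt, 6.58) and LMTK3 (390 nt, 28.5) in replicate 2. Peaks of equal length were taken by the higher fold, so these folds do not represent their length.

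Fold enrichment, the authors' ratio for each peak, was moderate and varied widely among the long unspliced peaks. Its median was 4.03 in replicate 1 (interquartile range 2.53 to 5.91, lowest 1.54, highest 26) and 5.01 in replicate 2 (3.50 to 8.91, lowest 1.67, highest 122). Other unspliced peaks had medians of 3.89 and 3.92, so the difference was 0.14 in replicate 1 and 1.09 in replicate 2, a mean of 0.615 ± 0.672 (SD, n = 2). The difference in medians was thus no larger than the spread between the lists. Spliced peaks of the same minimum length, summed over their blocks, had medians of 3.19 in replicate 1 (99 peaks) and 4.48 in replicate 2 (122 peaks). Folds above 10 were listed for 10 long unspliced peaks of replicate 1 (8.77%) and 35 of replicate 2 (22.3%), against 7.47% and 8% of other unspliced peaks. Within genes that had both kinds, the long peak had the higher fold in 40 of 48 genes in replicate 1, with a median difference of 1.34, and in 65 of 75 genes in replicate 2, with a median difference of 2.15. Length and fold were barely related among the long peaks (Spearman's rho 0.00388 across 114 peaks and -0.0920 across 157, peaks of 1 library that share its depth).

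**Figure D1:**
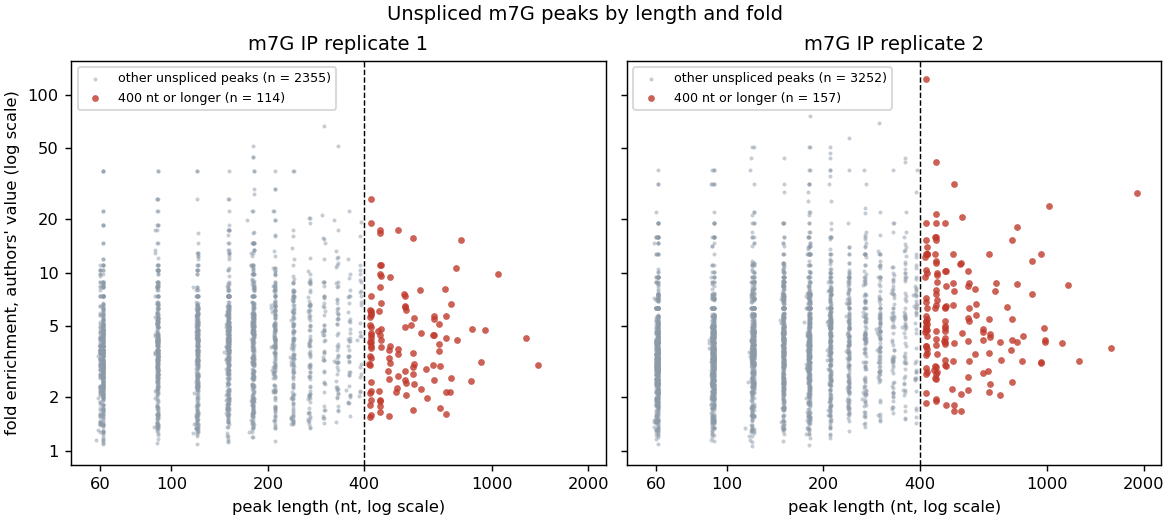
Fold enrichment (y axis, authors' ratio, log scale) against peak length (x axis, nt, log scale) for every unspliced peak of m7G IP replicate 1 (left) and replicate 2 (right). Each point is 1 peak, red points are the 114 and 157 peaks of 400 nt or longer, grey points are the shorter ones, and the dashed line marks 400 nt. The red points span about the same folds as the grey ones, and the columns of grey points show the 30-nt grid of lengths.

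The p-value scores of long and other unspliced peaks lay far apart. The median -log10 p was 24.7 in replicate 1 and 16.8 in replicate 2 for long unspliced peaks, against 4.98 and 4.70 for other unspliced peaks. Across all unspliced peaks, rho between length and -log10 p was 0.815 in replicate 1 (2469 peaks) and 0.802 in replicate 2 (3409 peaks), and between length and fold 0.113 and 0.201. Among the long peaks alone, rho between length and -log10 p was 0.304 and 0.285. Length and the number of reads behind a p-value cannot be told apart here, since the lists give no reads. Among long unspliced peaks, the strongest score in each list belonged to IGF2, a fetal growth factor mRNA, with -log10 p of 431 and 534. Spliced peaks reached higher scores, up to 916 in replicate 1 and 738 in replicate 2. High scores were also listed for IGFBP1, a secreted IGF-binding protein of the liver (411 and 243), CEBPB (277 and 251), the linker histone gene H1-10 (254 and 231) and, in replicate 1, PCBP1 (245). Their folds were low to moderate: the IGF2 peak had folds of 4.17 and 4.22, and the IGFBP1 peak 2.06 and 1.81. Among the long peaks, rho between fold and -log10 p was -0.127 in replicate 1 and -0.0750 in replicate 2.

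Some folds recurred in unrelated genes. The commonest fold among long unspliced peaks of replicate 2 was 12.7, at 8 of 157 peaks, among them peaks in VEGFA, NR2F1, SUZ12 and MAPK8IP2. Among other unspliced peaks of that list the commonest was 6.33, at 147 of 3252. In replicate 1 no fold stood at more than 2 long unspliced peaks, while 7.42 stood at 83 of 2355 other unspliced peaks. Why unrelated genes had equal folds was not tested.

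Nearly all long unspliced peaks were found again in the other list. Counting a peak as found again when a peak of the same gene and strand overlapped at least 50% of the shorter of the pair, 113 of 114 replicate 1 peaks were (99.1%, 95.2 to 99.8%), against 65.1% of all peaks of that list. In replicate 2, 150 of 157 were (95.5%, 91.1 to 97.8%), against 45.4% of all its peaks. Other unspliced peaks were found again in 60.7% and 39.6% of cases. Spliced peaks of 400 nt or more were found again in 100% of 99 and 90.2% of 122 cases.

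This share climbed with length, and the threshold of 400 nt fell on its upper shoulder. For unspliced peaks of up to 100 nt it was 39.8% in replicate 1 and 17.2% in replicate 2. It was 98.4% and 85.1% above 300 and under 400 nt, and 98.2% and 92.9% from 400 to under 500 nt. All peaks of 700 nt or more, 18 in replicate 1 and 28 in replicate 2, were found again. A longer peak also meets another more easily by its size alone. Under a reciprocal overlap of 80%, 64.9% of the long unspliced peaks of replicate 1 and 44.6% of those of replicate 2 had a partner, compared with 18.1% and 12.7% of other unspliced peaks.

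**Figure D2:**
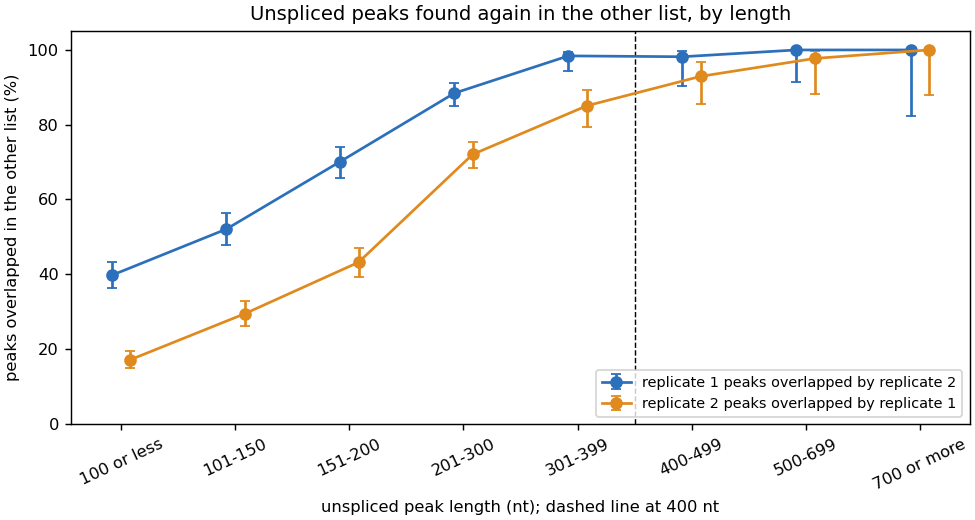
Percentage of unspliced peaks overlapped in the other list (y axis) by peak length class (x axis, nt), with blue points for replicate 1 peaks, orange points for replicate 2 peaks and bars for 95% Wilson intervals. The dashed line marks 400 nt, and the share rises from 39.8% and 17.2% in the shortest class to 100% in both lists at 700 nt or more.

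The partner was often, but not always, a long unspliced peak itself. In replicate 1, 77 of 114 had a long unspliced partner (67.5%), 28 a shorter unspliced one, 8 a spliced one and 1 none. In replicate 2 these counts were 75, 70, 5 and 7 of 157. Overlap with 2 or more peaks of the other list was seen for 14 long peaks of replicate 1 (12.3%) and 33 of replicate 2 (21.0%). The replicate 1 peak without a partner lay in WDR5, which encodes a subunit of histone methyltransferase complexes, and those of replicate 2 in LRP10, ZNF865, EIF4G1, CAMTA2, MAPK8IP2, ZFTA and ZNF385A. Their scores lay under the median -log10 p of the long unspliced peaks in the same list (24.7 and 16.8). The score was 4.85 for WDR5, and the 7 had a median of 8.89, with 16 for EIF4G1 and 15.3 for CAMTA2. Over all peaks of replicate 2, whose median length was only 151 nt, the median score was 5.07. Of the 7, ZFTA lay just under that at 5.05 and the others lay above it.

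Peaks that were long and unspliced in both lists formed 75 pairs in 70 genes. The boundaries were close: 12 pairs were identical at both ends, 36 shared the 5′ edge and 23 the 3′ edge, and 63 lay within 60 nt at the 5′ edge against 49 at the 3′ edge. The pair overlapped in a median of 89.6% of the bases that either covered. The pairs of identical boundaries lay in ZNF787, UBE2R2, SOX12, PABPC1, PXDC1, STARD7, TRNP1, PPP1R14B, PBX2, FN3K, JUND and RNF10, with replicate 1 folds from 2.11 (JUND) to 15.3 (ZNF787). The fold was higher in replicate 2 for 48 pairs and in replicate 1 for 24, with a median ratio of 1.16 (lowest 0.516, highest 16.6). It differed by less than 1.5 times in 57 of 75 pairs (76%), compared with 72.6% of 1153 pairs of other unspliced peaks. Across the pairs, rho between the lists was 0.796 for fold and 0.691 for length, and 0.790 and 0.447 for the pairs of other unspliced peaks (points share the 2 libraries).

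**Figure D3:**
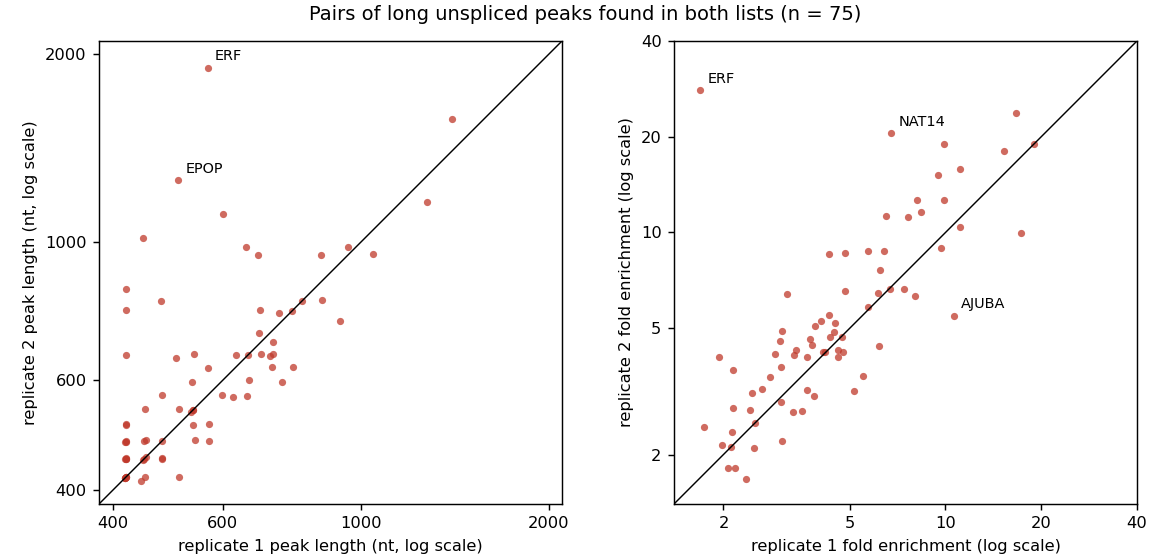
Length (left, nt, log scales) and fold enrichment (right, authors' ratio, log scales) of the 75 pairs of long unspliced peaks found in both lists, with replicate 1 on the x axis and replicate 2 on the y axis. Each point is 1 pair and the line marks equal values, and ERF lies farthest above the line in fold, at 1.69 and 28.

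Among the longest pairs, CEBPB had a peak at chr20:50190583-50191860 in replicate 1 (1278 nt, fold 4.3) and at chr20:50190583-50191741 in replicate 2 (1159 nt, fold 8.53). The first took in 60.6% of the gene's span. NR2F1, an orphan nuclear receptor gene, had a peak at chr5:93584052-93585095 in replicate 1 (1044 nt, fold 9.89) and one with the same 5′ edge in replicate 2 (955 nt, fold 12.7). CAMK2N1, which encodes an inhibitor of calcium/calmodulin kinase II, had peaks of 953 and 983 nt with folds of 4.75 and 4.22. In each of these genes the lists differed by less in length than in fold.

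Further pairs lay in genes of transcription and chromatin. ZNF787, a zinc finger gene, had the same 803 nt in both lists (chr19:56087749-56088551), with folds of 15.3 and 18. ZBTB7B, a BTB zinc finger factor, had peaks of 721 and 691 nt (folds 5.69 and 8.77), and ZFPM1, a cofactor of GATA factors, of 684 and 953 nt (5.17 and 3.16). TLE5, a Groucho family corepressor, had peaks of 739 and 769 nt (2.14 and 3.68), and the forkhead gene FOXQ1 of 685 and 714 nt (3.66 and 4.07). PATZ1, a zinc finger gene, had high folds in both lists, 16.7 over 447 nt and 23.7 over 1013 nt. PBX2, a homeodomain gene, had identical boundaries (chr6:32189710-32190156, 447 nt) and folds of 11.1 and 15.9. BPTF, a subunit of the nucleosome remodelling factor NURF, had peaks of 480 and 450 nt (9.44 and 15.2).

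Others lay in genes of signalling, secreted or cytoskeletal proteins. DUSP9, a MAP kinase phosphatase gene, had peaks of 864 and 953 nt with low folds of 2.46 and 3.13. OGFR, an opioid growth factor receptor gene, had peaks of 867 and 807 nt (4.83 and 8.62), and SEMA6B, a transmembrane semaphorin, of 926 and 747 nt (3.17 and 6.42). VEGFA, the endothelial growth factor, had a 715 and a 656 nt peak from the same 5′ edge at chr6:43770566 (8.11 and 12.7), and TGFB1 a 654 and a 980 nt peak (4.47 and 4.87). AJUBA, a LIM-domain scaffold of cell junctions, was among the 24 pairs with the higher fold in replicate 1, at 10.6 against 5.47 over 776 and 775 nt. MAP2K7, a kinase upstream of JNK, had 449 and 479 nt (9.89 and 19), and NCKAP1, a subunit of the WAVE actin regulator, 420 and 450 nt with a fold of 19 in both lists. CTSD, a lysosomal protease gene, had peaks of 688 and 778 nt and folds of only 1.74 and 2.45.

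Pairs were also seen in genes of RNA processing and translation. SF3A2, a component of the U2 small nuclear ribonucleoprotein, had peaks of 721 and 661 nt (folds 2.13 and 2.36). PTBP1, a splicing repressor, had 418 and 448 nt (6.20 and 7.64). PABPC1, the cytoplasmic poly(A)-binding protein, had the same 537 nt in both lists (2.49 and 2.09), and ALKBH5, an RNA demethylase of N6-methyladenosine, 568 and 628 nt (3.54 and 2.75). Members of multigene families with near-identical copies, such as histone genes and PABPC1, can share reads with those copies, and their values are uncertain for that reason.

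Few genes held several long unspliced peaks, 9 in replicate 1 and 7 in replicate 2. The ones in both lists were FOXQ1, IGF2, JUND, SOX12 and TNRC18. SOX12, a SoxC transcription factor gene, had 3 in replicate 1 (folds 2.52, 6.51 and 2.41 in 5′ to 3′ order), of which the middle one had the same boundaries and a fold of 11.3 in replicate 2. JUND carried a peak at its start (536 and 596 nt, folds 2.80 and 3.51) and one of identical boundaries farther along (418 nt, fold 2.11 in both). In IGF2 the 3 peaks of replicate 1 had folds of 4.17, 1.98 and 1.60, and in replicate 2 the last fell just short of the threshold at 390 nt (fold 1.55). In CEBPB the 2 peaks of replicate 1 summed to 1784 nt, 84.6% of the gene's span. Gaps between neighbouring long peaks were as small as 59 nt, in SEMA6B in replicate 2, and 147 nt in CEBPB and FOXQ1 in replicate 1.

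ERF, which encodes an ETS-family repressor, was divided differently in the lists. Replicate 1 had 2 long peaks there, 567 nt with a fold of 1.69 and 566 nt with a fold of 15.7, and a 239 nt peak with a fold of 2.88 between them. Replicate 2 had a single peak of 1905 nt with a fold of 28 over all 3 (chr19:42247591-42249495). The pair ratio of 16.6 was taken against the 567 nt peak, which shared 1 base more with the long one. Against the 566 nt peak at the same 3′ edge, the folds were 15.7 and 28. EPOP had peaks of 509 and 659 nt in replicate 1 (folds 2.65 and 2.51). Its peak of 1256 nt in replicate 2 (fold 3.21) covered the first whole and 72.7% of the second, and a 270 nt peak (fold 2.12) overlapped the rest in part.

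**Figure D4:**
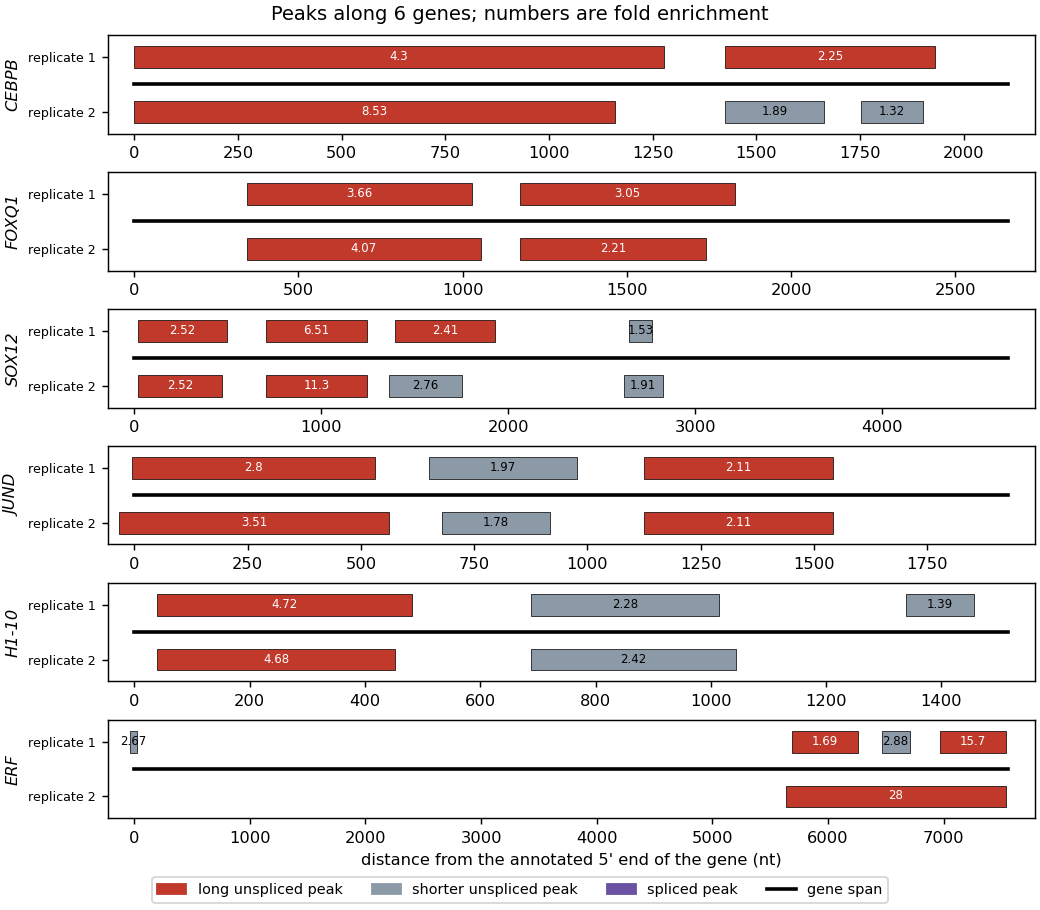
Peaks along CEBPB, FOXQ1, SOX12, JUND, H1-10 and ERF, with distance from the annotated 5′ end of the gene (x axis, nt), replicate 1 above and replicate 2 under the gene span (black line). Red boxes are long unspliced peaks, grey boxes shorter unspliced peaks, and the number in each box is its fold enrichment; the 1905 nt peak of ERF in replicate 2 spans 3 peaks of replicate 1.

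Several of the highest folds belonged to peaks that were long and unspliced in 1 of the lists. ZFP91, which encodes a zinc finger ubiquitin ligase, had a fold of 42.2 over 450 nt in replicate 2 and 66.8 over 300 nt in replicate 1. MBD2, which encodes a methyl-CpG-binding protein, had 31.6 over 511 nt in replicate 2 and 7.42 over 391 nt in replicate 1. AEBP2, a Polycomb cofactor, had 26 over 421 nt in replicate 1 and lay under a spliced peak of 721 nt with a fold of 35.8 in replicate 2. PIP4K2B, a phosphatidylinositol phosphate kinase gene, had 17.3 over 448 nt in replicate 1 and 42.2 over 359 nt in replicate 2. SUZ12, a core subunit of the Polycomb repressive complex, had 12.7 over 420 nt in replicate 2 and 29.7 over 181 nt in replicate 1. SMO, the Hedgehog signal transducer, had 19 over 419 nt and 12.1 over 329 nt, and KLHDC7B 21.5 over 449 nt and 5.71 over 120 nt, each with replicate 2 first. In each of these 7 genes the other list had a peak at the same place, with a fold that differed by 1.38 times (AEBP2) to 4.26 times (MBD2). Their long peaks had -log10 p from 7.5 (SUZ12) to 18.6 (ZFP91), against medians of 24.7 and 16.8 over all long unspliced peaks. The 12.7 of SUZ12 and the 7.42 of MBD2 were among the recurring folds.

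Position along the gene was measured from the ends of the annotated span. A peak of this length can hardly have its midpoint within 200 nt of an end unless it runs past it, so edges were used. Some base lay within 200 nt of the annotated 5′ end in 37 peaks of replicate 1 (32.5%) and 62 of replicate 2 (39.5%), against 32.4% and 26.7% of other unspliced peaks. For the 3′ end this held for 21 (18.4%) and 17 (10.8%), against 6.93% and 6.76%. Reaching the annotated 5′ end was seen in 14.8 ± 0.186% of long unspliced peaks (SD, n = 2) and in 7.14 ± 1.16% of the others. Reaching the 3′ end was seen in 4 peaks (3.51%) and 5 peaks (3.18%), against 1.38% and 1.25%. Longer peaks touch an end more easily, and no comparison at equal length is possible, as the groups do not overlap in length.

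**Figure D5:**
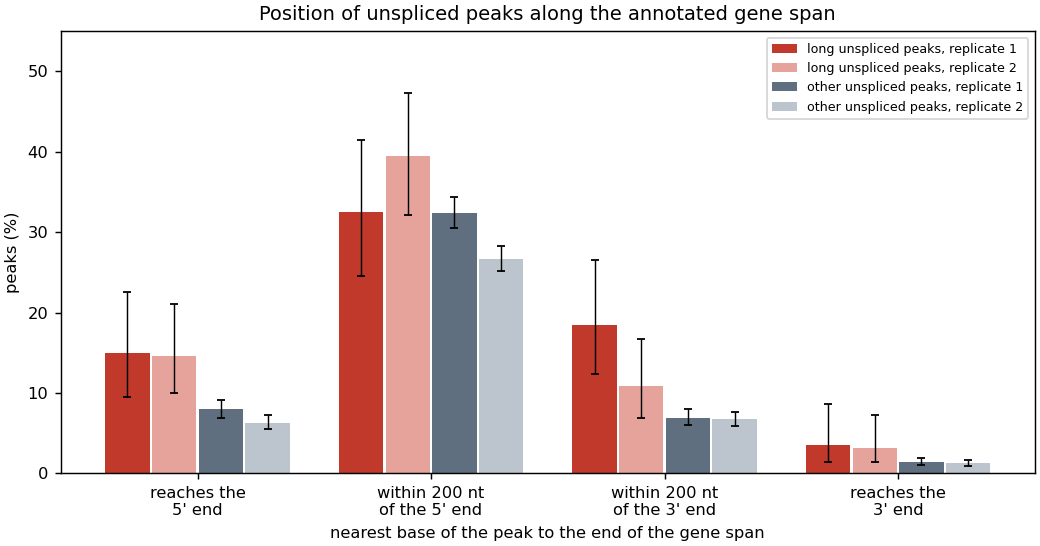
Percentage of unspliced peaks (y axis) whose nearest base reaches, or lies within 200 nt of, the 5′ or 3′ end of the annotated gene span (x axis), with red bars for long unspliced peaks, grey bars for other unspliced peaks, dark shades for replicate 1 and light shades for replicate 2. Error bars are 95% Wilson intervals; 14.9% and 14.6% of the long peaks reach the 5′ end, against 7.97% and 6.32% of the others.

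By midpoint, 5 of 114 (4.39%) and 10 of 157 (6.37%) lay within 200 nt of the 5′ end, against 27.1% and 21.4% of other unspliced peaks. For the 3′ end these were 0 of 114 and 0 of 157, against 4.65% and 4.80%. By a floor of 3 counts, the zeros allow shares of up to 2.63% and 1.91%. The length rule itself keeps midpoints of long peaks away from an end, so these shares show no depletion there. The stretch from 200 to 1000 nt after the 5′ end held 41 (36.0%) and 65 (41.4%), against 16.1% and 16% of other unspliced peaks. The same stretch before the 3′ end held 33 (28.9%) and 39 (24.8%), against 16.5% and 16.9%. With the first 200 nt included, up to 1000 nt from the 5′ end lay 40.4% and 47.8% of long unspliced peaks, against 43.2% and 37.3% of the others. Up to 1000 nt from the 3′ end lay 28.9% and 24.8%, against 21.1% and 21.7%. Over that whole stretch the lists differed in direction at the 5′ end, while at the 3′ end the long peaks had the higher share in both. Folds were higher toward the start: the median was 4.3 and 5.56 in the stretch after the 5′ end, and 2.90 and 4.08 in the stretch before the 3′ end. Shorter unspliced peaks had the same order, with 4.12 and 4.52 near the start and 2.97 and 3.16 near the end.

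Host genes were shorter by their median. The median gene span was 12117 nt for the long unspliced peaks of replicate 1 and 16978 nt for those of replicate 2, against 24873 and 25260 nt for other unspliced peaks. A span of 5 kb or less held 18.4% and 15.9% of them, against 10.1% and 10.2%. Chromosome 19, which is dense in genes, held 23 of 114 (20.2%) and 30 of 157 (19.1%), against 11.2% and 11.9% of other unspliced peaks. Chromosome 17 held 14.9% and 12.1%, against 8.11% and 8.89%. Of the long unspliced peaks, 24 of replicate 1 (21.1%) and 21 of replicate 2 (13.4%) also lay over the span of another gene. Such genes included CEBPB-AS1, NR2F1-AS1 and INS-IGF2. This share was not computed for other peaks, so it cannot be called particular to the long ones. The libraries were made with a stranded kit, but whether the authors used strand when assigning reads is not given in the sources used here.

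A long unspliced peak was carried by 103 of 2511 genes with a peak in replicate 1 (4.1%) and 149 of 3205 in replicate 2 (4.65%). The 70 genes that had one in both lists amounted to 68.0% of the host genes in replicate 1 and 47.0% in replicate 2. Nearly every host gene had some peak in the other list, 103 of 103 and 146 of 149 (98.0%), against 77.5% and 60.7% of all genes with a peak. Host genes had on average 2.11 and 2.31 peaks, against 1.30 and 1.44 in other genes.

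Gene classes are given by their counts beside these shares, with no test. Of listed genes whose mRNA comes from 1 exon, 5 of the 12 with a peak in replicate 1 and 5 of the 17 in replicate 2 had a long unspliced peak. CEBPB, FOXQ1, JUND and SOX12 did so in both lists, RAP2B in replicate 1 (450 nt, fold 4.17) and CEBPA in replicate 2 (719 nt, fold 3.22). A gene without introns cannot give a spliced peak, so the choice of unspliced peaks bears on this count. Of histone genes, 3 of 7 and 1 of 5 had one, among them H1-10 in both lists (443 and 414 nt, folds 4.72 and 4.68) and H2AX in replicate 1 (413 nt, 3.08). Genes with an exceptionally long coding exon gave 1 of 11 and 3 of 13. TNRC18 was in both lists, while ARID1A (778 nt, fold 15.2) and ARID1B (481 nt, fold 10.2), subunits of the BAF remodelling complex, were in replicate 2.

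Growth factor and RNA modification genes gave small numbers. Of insulin and growth factor signalling genes, 3 of 14 and 3 of 17 had a long unspliced peak, and IGF2, IGFBP1 and MIDN did so in both lists. MIDN, which encodes midnolin, is better known for protein degradation than for growth factor signalling. RNA modification enzymes and readers gave 2 of 11 and 2 of 13, with ALKBH5 in both. QKI, an RNA-binding protein known to bind internal m7G, had a 660 nt peak with a fold of 4.47 in replicate 1, which in replicate 2 lay under a spliced peak of 1559 nt with a fold of 8.19. TRMT61A, the catalytic subunit of the tRNA m1A methyltransferase, had one in replicate 2 (447 nt, fold 6.33). Immediate early transcription factors gave 2 of 11 and 2 of 17, in both cases CEBPB and JUND. SR and hnRNP splicing factors gave 3 of 20 and 1 of 21, with PTBP1 in both, and PCBP1 (446 nt, 6.11) and HNRNPA0 (450 nt, 3.83) in replicate 1.

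Several classes had a long unspliced peak in replicate 2 and none in replicate 1, a difference that was not tested. Hippo, Wnt and MAPK signalling genes gave 0 of 19 in replicate 1 and 4 of 21 in replicate 2. These were GSK3B, a Wnt pathway kinase (451 nt, fold 9.78), YAP1, the Hippo pathway coactivator (510 nt, 7.91), MAP3K11 (567 nt, 5.56) and DVL3 (450 nt, 3.92). In replicate 1 all 4 had a shorter or spliced peak at the same place, of 271, 360, 60 and 61 nt. Hepatocyte transcription factors gave 0 of 8 and 2 of 9, from CEBPA and the nuclear receptor RXRA (898 nt, fold 11.7), and hepatocyte secreted proteins 0 of 14 and 1 of 15, from APOE (504 nt, 2.24). Sterol and fatty acid synthesis genes gave 0 of 7 and 1 of 9 (MVD, 480 nt, 4.74), and ER chaperone and unfolded protein response genes 0 of 20 and 1 of 22 (EDEM1, 419 nt, 3.87). KLF genes gave 0 of 2 and 1 of 5 (KLF16, 448 nt, 7.98). In replicate 1, CEBPA, RXRA, MVD, EDEM1 and KLF16 had a shorter unspliced peak at the same place, of 240, 61, 61, 240 and 120 nt. APOE had a spliced peak of 1037 nt. At EDEM1 the replicate 1 peak had a fold of 37.1, with a -log10 p of 5.45.

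The remaining classes gave small counts or none. Chromatin regulators gave 2 of 27 (7.41%) and 4 of 36 (11.1%), and translation factors 1 of 15 (6.67%) and 3 of 18 (16.7%). ZBTB genes gave 1 of 9 (11.1%) in each list. All 3 classes lay above the 4.1% and 4.65% of all genes with a peak, on few genes and untested. ZNF genes gave 1 of 31 (3.23%) and 4 of 51 (7.84%), and solute carriers 2 of 55 (3.64%) and 2 of 70 (2.86%). Among the translation factors, PABPC1 was in both lists and EIF3B (449 nt, fold 1.95) and EIF4G1 (450 nt, 2.96) in replicate 2. Among the solute carriers, the lactate transporter gene SLC16A3 was in both lists (504 and 652 nt, folds 2.14 and 2.80). Cytosolic ribosomal protein genes had none among 18 and 14 genes with a peak, and F-box genes none among 14 and 17. Immune markers (2 genes with a peak) and endothelial and stellate markers (1 gene) had none either, and protocadherin genes had no peak of any kind.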

How the data were processed

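The authors' peak lists of the 2 m7G IP samples of HepG2 were used. The deposited columns give, per the file headers, position, strand, gene, blocks, a p-value, log10 p and log10 FDR scores and a fold enrichment, a ratio per peak. STAR and GRCh38 appear, per the submitters' processing notes, with no step stated. The sources used here do not name the peak caller, its filters or the scaling of the fold, and give no read depth. The weakest deposited FDR score had a -log10 of 1.32 in both lists, and the p-value is listed as 0 for 2 long unspliced peaks of replicate 1 and 1 of replicate 2, so the log10 p score was used.

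Long unspliced peaks had 1 block and a length of 400 nt or more. The rule and the gene lists were chosen with earlier results of these data known. All such peaks were placed on RefSeq gene spans of GRCh38.p14, by symbol (105 and 149) or by an older symbol (9 and 8). No exon or UTR models or genome sequence were used, so exon and UTR classes were not analysed here. Overlap was counted within gene and strand as at least 50% of the shorter peak. Genes named are those of the 10 longest peaks and 10 highest folds per list, the 5 best scores, the 15 longest pairs, up to 4 per gene list, those with 3 or more such peaks, and the nearest 3 on each side of the threshold, apart from a few that are left out here. Genes beyond this rule (such as VEGFA, RALY and those without a partner peak) were named after their values were seen. Shares have 95% Wilson intervals, which like the floor of 3 counts for a share of 0 cover counting error only. The overlap and distance code was tested on simulated peaks. Alternatives were other minimum lengths, the better-scored 50% of each list, other overlaps, other position windows, gene spans over 10 kb, summed block lengths and each list alone. Tables were computed in Python 3.11.15 with pandas 2.3.3, numpy 2.4.6 and scipy 1.17.1, and figures drawn with matplotlib 3.10.9.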

Additional observations from a re-analysis of the deposited data

How the results depend on the processing

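Each value here is the mean of the lists unless named otherwise. Share of the list (3.35%): 8.09% with a minimum of 300 nt, 1.64% with 500 nt, 6.66% among the best-scored 50% of peaks, and 6.11% counting all peaks by summed blocks. Peaks found again (97.3%): 93.6% at 300 nt, 91.0% among the best-scored 50%, and 54.7% under 80% reciprocal overlap. For the 91.0%, both lists were cut to their best-scored 50%, so partners with weaker scores no longer counted. Midpoint within 200 nt of the 5′ end (5.38%): 14.9% at 300 nt, 2.24% at 500 nt, 35.0% with a window of 500 nt, and 36.0% for any base. The 3′ share (0%) was 2.09% at 300 nt, 15.4% with 500 nt windows and 14.6% for any base. These shifts follow from the construction, as length bounds where a midpoint can lie. Genes with a long unspliced peak in both lists (70) numbered 167 at 300 nt and 38 at 500 nt. The fold difference (0.615) was 1.74 within genes, 0.853 at 300 nt, 0.243 at 500 nt, 0.113 among the best-scored 50% and 0.75 against all other peaks. The median fold moved by less than the SD in all its 6 alternatives. For each list alone this was fixed beforehand, since either of 2 values lies within the SD of their mean. The fold difference stayed positive in each of its own alternatives. The position shares did turn against those of other unspliced peaks. By midpoint the others had more, 24.2% at the 5′ end and 4.72% at the 3′ end. By any base they had less, 29.5% and 6.85%, though at the 5′ end of replicate 1 the shares were nearly equal (32.5% and 32.4%).

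Leaving out each replicate in turn gave 3.31 to 3.40% for the share, 4.03 to 5.01 for the median fold, 0.14 to 1.09 for the fold difference, 95.5 to 99.1% found again, 4.39 to 6.37% at the 5′ end and 0 to 0% at the 3′ end. No paired analysis was possible because the inputs were not analysed here and the IP samples form 1 group. Depth is unknown, gene ends are those of annotated spans, and 2 lists give no test.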
